A study of Mus musculus with 24 samples.

Results

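Among the genes that moved farthest from their resting level in endothelial cells of injured mouse muscle, 5 that are better known from other tissues were followed here. AA467197 and Prnd were chosen because they rose in endothelial cells after injury, and Cdh23, Aldh1l1 and Nts because they fell. They are 5 of the 23279 genes with a symbol on the array, each is read by 1 probe set, and all 5 passed the filter on low values that left 14064 genes for testing. They were selected on their endothelial differences from day 0, which are therefore given as a description, with the standard error (SE) and no test. The selection rule did not use the satellite cell differences, and these were tested.

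Expression was measured on 24 arrays of cells sorted from mouse tibialis anterior muscle, before injury (day 0) and 2, 4 and 8 days after injury. The injury was made with cardiotoxin, which comes from snake venom and destroys muscle fibres. Endothelial cells, which line blood vessels, were sorted as CD45- Sca1+ CD34+ CD31+ cells. Satellite cells, the stem cells of muscle, were sorted as CD45- Sca1- CD31- cells with alpha7-integrin and with CD34 present or low. Each of the 8 groups of cell type and day holds 3 arrays that the labels call biological replicates, and the day 0 groups received no injury. Strain, sex, age and number of animals per array are not given in the sources used here, so a p-value measures the spread between these samples. Every later day within a cell type is compared with the same 3 arrays of day 0, so these comparisons share their controls.

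Values are log2 expression, and array medians lay between 4.11 and 4.40, which serves as a guide to the level of background. Pecam1, which encodes CD31, lay between 11.29 and 11.70 on the 12 endothelial arrays. Pax7, the satellite cell transcription factor, lay between 8.76 and 9.80 on the satellite arrays of day 0 and between 4.67 and 5.70 on those of day 2. Prox1, which defines lymphatic endothelium, stayed below the array median on all 12 endothelial arrays. Groups follow the sample titles. The source name matches the title in every sample, but the separate cell type field differs from it in 12 of 24 samples and the time point field in 18. The arrays were numbered day by day, so day and array number cannot be told apart.

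AA467197, also named Nmes1, encodes a small mitochondrial protein related to Ndufa4, a subunit of cytochrome c oxidase (complex IV), and its transcript is also the host of the microRNA miR-147. Inflammatory signals through NF-kB are known to induce it in macrophages. Prnd encodes doppel, a membrane-anchored relative of the prion protein that is known from testis and from vessels of the developing brain. Cdh23 encodes cadherin-23, an atypical cadherin that forms the tip links of inner ear hair cells together with protocadherin-15. Aldh1l1 encodes the cytosolic enzyme that oxidises formyltetrahydrofolate to tetrahydrofolate and carbon dioxide, and it is widely used to mark astrocytes. Nts encodes the precursor of neurotensin and neuromedin N, peptides that act on neurons, gut and blood vessels.

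The 250 bases before the start site are shown for the 3 genes whose change was also called in satellite cells, as RefSeq gives them on mouse build GRCm38.p6. Capitals mark matches, on either strand, to 4 motifs. These are a loose NF-kB pattern, AP-1 (TGANTCA), the ETS core (AGGAAG) and the E-box core of hypoxia factors (ACGTG). The NF-kB pattern is a run of G and a pair of C around any bases. It leaves free inner bases that the full NF-kB consensus restricts, so a match need not fit that consensus.
AA467197, chr2:122637637-122637886, plus strand: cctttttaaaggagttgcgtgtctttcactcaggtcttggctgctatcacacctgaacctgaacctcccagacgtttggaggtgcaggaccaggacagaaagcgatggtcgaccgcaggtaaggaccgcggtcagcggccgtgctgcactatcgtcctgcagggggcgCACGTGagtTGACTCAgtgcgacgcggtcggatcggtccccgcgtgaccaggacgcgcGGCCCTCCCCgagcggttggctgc
Prnd, chr2:131950611-131950860, plus strand: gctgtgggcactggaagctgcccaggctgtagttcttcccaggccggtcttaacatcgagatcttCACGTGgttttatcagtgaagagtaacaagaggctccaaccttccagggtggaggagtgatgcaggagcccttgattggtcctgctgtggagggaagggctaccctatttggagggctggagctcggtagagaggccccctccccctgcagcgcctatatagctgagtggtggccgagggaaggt
Nts, chr10:102490419-102490668, minus strand: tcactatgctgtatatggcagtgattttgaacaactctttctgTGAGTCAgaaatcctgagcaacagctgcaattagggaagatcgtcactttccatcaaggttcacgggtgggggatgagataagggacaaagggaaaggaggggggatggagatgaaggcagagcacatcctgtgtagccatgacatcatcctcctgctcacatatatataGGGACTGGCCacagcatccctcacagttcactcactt
The AA467197 window holds an NF-kB match 24 to 15 bases before the start, an AP-1 match 73 to 67 bases before it and an E-box, CACGTG, 82 to 77 bases before it. The Prnd window, the first of 2 listed for that gene, holds an E-box 185 to 180 bases before the start and no match to the other 3 motifs. The Nts window holds an AP-1 match 207 to 201 bases before the start and an NF-kB match 37 to 28 bases before it. The Cdh23 window holds 1 NF-kB and 1 ETS match, and the Aldh1l1 window holds 2 NF-kB matches. Among 32851 mouse promoter windows of the same length, 45.8% hold the NF-kB letters, 6.75% the AP-1 letters, 29.5% the ETS core and 16.6% the E-box core. A match describes these letters and does not show a bound site.

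AA467197 lay below the array medians before injury in both cell types and showed the largest rise of all 14064 genes in endothelial cells on days 2 and 4. On day 8 its rise ranked 4. The 3 endothelial arrays of day 0 read 3.95, 2.87 and 4.19, none above the median of its array. On day 2 they read 10.52, 10.36 and 10.31. On day 4 they read 9.57, 9.49 and 9.66, and on day 8 they read 7.60, 7.90 and 6.38. No array after injury overlapped day 0, the arrays of day 2 all lay above those of day 4, and these lay above those of day 8. Against day 0 the endothelial level was higher by 6.73 (log2, SE 0.39, n = 3) on day 2, 5.90 on day 4 and 3.62 on day 8. Since the resting values lie at background, these differences can understate the change and no fold is given.

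Satellite cells also peaked on day 2, at a lower level. Their AA467197 arrays read 4.02, 3.02 and 2.56 on day 0. They read 9.14, 9.21 and 8.67 on day 2, 6.67, 6.94 and 7.12 on day 4, and 3.76, 4.32 and 4.58 on day 8. The arrays of days 2 and 4 lay above every resting array, whereas those of day 8 overlapped day 0. In limma's moderated test, adjusted by Benjamini-Hochberg over all genes, the level rose by 5.81 on day 2 (adjusted p = 8.12e-10) and by 3.71 on day 4 (adjusted p = 9.75e-07). The difference on day 8 was 1.02 (SE 0.39, adjusted p = 0.110) and was not called, a call requiring an adjusted p under 0.05 and a log2 difference of at least 1. Without satellite day 0 replicate 1 that difference was 1.43 (adjusted p = 0.0298, limma) and passed. The level then fell by 2.09 from day 2 to day 4 (adjusted p = 0.000717, limma), where 5.76% of all genes were called lower, and by 2.69 from day 4 to day 8 (adjusted p = 0.000520, limma), where 0.519% were.

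Over the 8 groups the AA467197 means ran from endothelial day 2 (10.40 ± 0.11, SD, n = 3) through endothelial day 4 (9.57 ± 0.08) and satellite day 2 (9.01 ± 0.29) to endothelial day 8 (7.29 ± 0.81) and satellite day 4 (6.91 ± 0.23). Satellite day 8 (4.22 ± 0.42), endothelial day 0 (3.67 ± 0.71) and satellite day 0 (3.20 ± 0.75) came last. Arrays of neighbouring groups overlapped between endothelial day 8 and satellite day 4 and among the last 3 groups, and not elsewhere. The satellite level was below the endothelial one by 0.47 on day 0, 1.39 on day 2, 2.66 on day 4 and 3.07 on day 8 (SE 0.39 each).

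**Figure D1:**
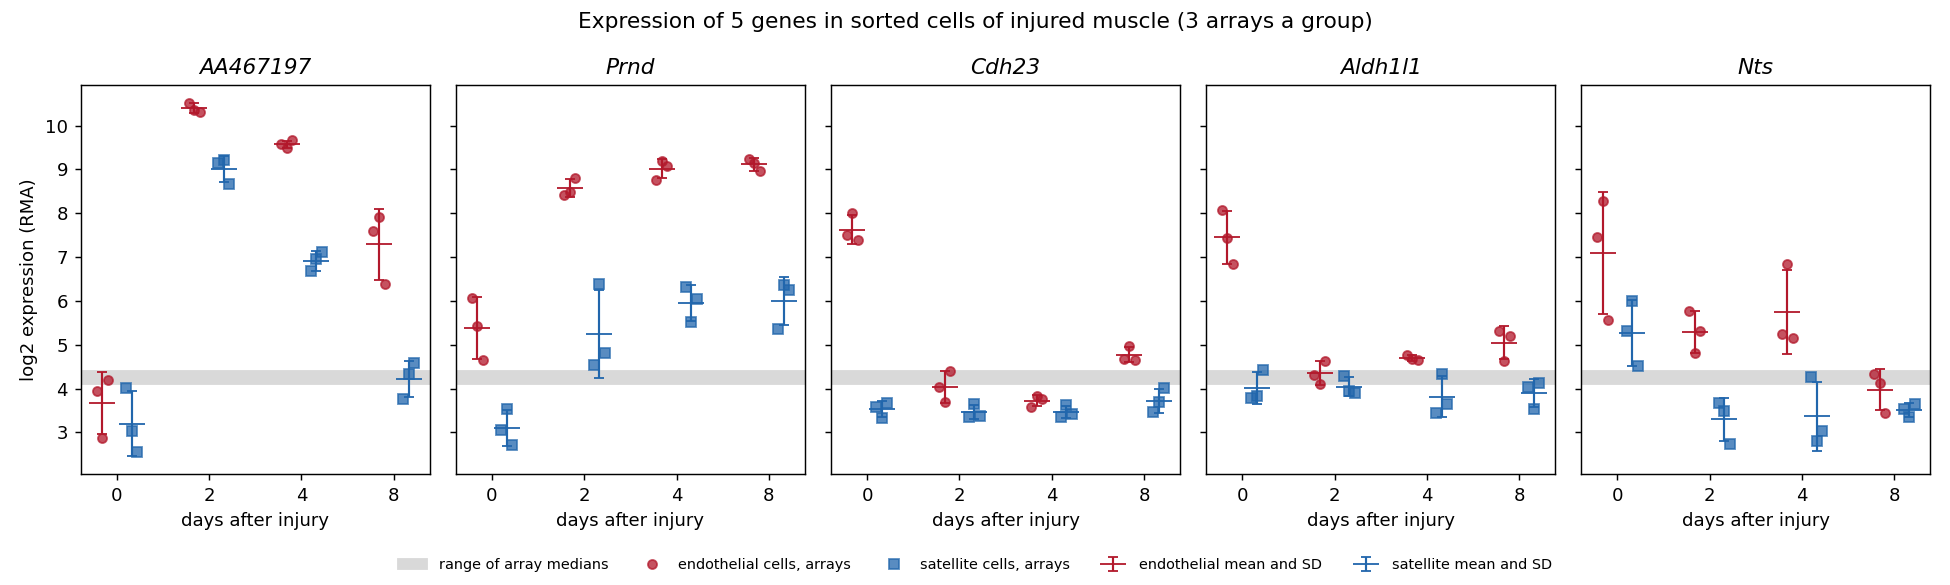
Log2 expression (vertical axis, RMA values) of each gene against days after injury (horizontal axis), with 1 point per array, red circles for endothelial and blue squares for satellite cells, crosses at the group mean with bars of 1 SD, and a grey band over the range of array medians. AA467197 peaks on day 2 in both cell types, Prnd stays high in endothelial cells to day 8, and Cdh23 and Aldh1l1 stand clear of the band mainly in resting endothelial cells.

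Transcripts of leukocytes (white blood cells) were present in both sorts after injury, although both exclude CD45, the leukocyte antigen. Of 18 leukocyte markers tested, 10, 13 and 3 rose in endothelial cells at days 2, 4 and 8, where 3.73%, 3.11% and 1.11% of all genes were called higher. In satellite cells 18, 15 and 7 rose, where 10.9%, 6.53% and 4.38% of all genes did. The count of 13 was 6 without endothelial day 0 replicate 1 or endothelial day 4 replicate 1, and 8 without endothelial day 0 replicate 3. The mean over this list was 3.98 to 4.03 on the endothelial arrays of day 0, 5.81 to 8.17 on day 2, 5.86 to 8.03 on day 4 and 4.62 to 5.45 on day 8. On satellite arrays it was 3.64 to 4.16, 9.03 to 10.62, 6.84 to 8.03 and 4.99 to 6.33 in the same order. Ptprc, which encodes CD45, read 6.75, 4.32 and 3.64 on the endothelial arrays of day 2 and 9.82, 8.01 and 9.67 on the satellite arrays of that day.

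On the endothelial arrays of day 2 the leukocyte list spanned 2.37 between the lowest and the highest array, and AA467197 spanned 0.21. The order of the 3 AA467197 values matched that of the leukocyte list on 0 of 3 days after injury in endothelial cells and on 0 of 3 in satellite cells. It also matched that of a list of endothelial markers on 0 of 3 days in each cell type, so this order does not tell the lists apart. Over the 4 endothelial group means, the leukocyte markers Tyrobp and Ctss were among the 3 genes closest in course to AA467197. On day 2 the leukocyte list was above the endothelial arrays in all satellite arrays, while AA467197 stood lower there. The part of leukocyte RNA in the AA467197 rise was not tested. In sorted bulk samples more cells of a type and more RNA per cell cannot be told apart.

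Ndufa4, the complex IV subunit to which the AA467197 protein is related, read 9.78 to 9.90 on the endothelial arrays of day 0 and 9.54 to 9.76 on those after injury. Its endothelial differences were -0.26, -0.16 and -0.25 on days 2, 4 and 8, none of them called. In satellite cells it read 9.23 to 9.70 at rest and 10.28 to 10.55 on day 8, and its differences were 0.44, 0.87 and 0.96, each under the size needed for a call (adjusted p = 0.0457, 0.000656 and 0.000471, limma). The satellite response exceeded the endothelial one by 1.03 on day 4 (SE 0.23, adjusted p = 0.0105, limma) and by 1.21 on day 8 (adjusted p = 0.00529).

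Of 16 complex IV genes other than AA467197, 15 were not called in each comparison with day 0. The gene that fell in endothelial cells on each day was Cox4i2, an isoform known from lung and vessel walls, by 1.95, 2.37 and 1.73 (adjusted p = 0.00963, 0.00248 and 0.0494, limma). In satellite cells Cox4i2 fell by 2.18 and 3.23 on days 2 and 4, and Cox6a2, the heart and muscle isoform, rose by 2.62 on day 8 (adjusted p = 0.00209). The list medians in endothelial cells were 0.10, 0.08 and -0.05, beside -0.01, -0.02 and -0.0023 over all genes tested. In satellite cells they were -0.04, 0.39 and 0.68, beside -0.03, 0.01 and -0.0064, and at an unadjusted p under 0.05 (limma) 4, 5 and 9 of the 16 genes were higher and 2, 1 and 1 lower. The 1 called higher on day 8 became 4 without satellite day 0 replicate 3 or satellite day 8 replicate 1 and 2 without satellite day 8 replicate 2. The day 2 fall of Cox4i2 was lost without endothelial day 0 replicate 1 or endothelial day 2 replicate 2, and the day 8 fall without any 1 of 16 of the 24 arrays.

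Markers of muscle fibres also rose in the satellite sort after injury. Of 9 tested, 4 rose in satellite cells on day 4 and 7 on day 8, where 6.53% and 4.38% of all genes did, and the median differences were 0.64, 1.35 and 2.38 on days 2, 4 and 8. The list mean was 6.75 to 7.17 on the resting satellite arrays, 6.65 to 8.00 on day 2, 7.90 to 8.46 on day 4 and 7.84 to 10.24 on day 8. On day 8 replicates 1, 2 and 3 had list means of 7.84, 10.20 and 10.24, and Ndufa4 read 10.33, 10.28 and 10.55 there. In the endothelial sort 4 of these markers fell on day 2 and 1 on day 4, where 3.01% and 2.22% of all genes did, and the list mean was 6.25 to 7.14 at rest and 4.65 to 5.21 on day 2. The 1 that fell on day 4 became 5 without satellite day 8 replicate 1, an array that enters through the shared spread alone. The part of muscle fibre RNA in the Ndufa4 and Cox6a2 differences was not tested.

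Known NF-kB targets also rose. Of 19 tested in endothelial cells, 8, 10 and 5 rose at days 2, 4 and 8, where 3.73%, 3.11% and 1.11% of all genes did. None fell (1, 0 and 1 were lower at an unadjusted p under 0.05, limma). Their median differences were 0.93, 1.38 and 0.72. Cxcl2, a neutrophil chemokine, rose by 5.69, 5.15 and 3.26 (adjusted p = 7.41e-07, 2.97e-06 and 0.00100, limma). Ccl2, a monocyte chemokine, rose by 4.74 on day 2 and 4.67 on day 4, Il1b, a cytokine, by 4.42 on day 2, and Il6 by 4.73 on day 4 and 3.38 on day 8. Sele, the endothelial adhesion molecule E-selectin, rose by 2.32 on day 8 (adjusted p = 0.00701). In satellite cells 13, 7 and 6 of the 19 rose on days 2, 4 and 8, where 10.9%, 6.53% and 4.38% of all genes did. The rises of day 2 were led by Il1b (7.54), Cxcl2 (7.38) and Ptgs2 (6.85). Vcam1, an adhesion molecule, fell by 2.35 on day 2 (named after its value was seen). Several of these genes are also expressed by leukocytes, whose markers rose in the same sorts.

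The microRNA gene Mir147 lies inside the AA467197 gene (chr2:122640803-122640881 within chr2:122637887-122641076, GRCm38.p6). No probe set here carries its name, so the microRNA itself was not measured. The mature 5p arm is shown because its host is the gene with the largest rise, with the seed, bases 2 to 8, in capitals.
mmu-miR-147-5p, chr2:122640814-122640837, plus strand: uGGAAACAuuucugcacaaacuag

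Prnd rose in endothelial cells and, unlike AA467197, had not come down by day 8. The endothelial arrays of day 0 read 6.07, 5.42 and 4.66. They read 8.41, 8.49 and 8.80 on day 2, 8.76, 9.19 and 9.09 on day 4, and 9.23, 9.15 and 8.95 on day 8. Every array after injury lay above every resting array, and the arrays of days 2 and 4 overlapped, as did those of days 4 and 8. The endothelial level was higher by 3.18, 3.63 and 3.73 (SE 0.40 each, n = 3) on days 2, 4 and 8, which is 9.06-fold, 12.4-fold and 13.3-fold. Among the rises of all genes tested these rank 29, 20 and 3.

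In satellite cells Prnd read 3.04, 3.54 and 2.71 at rest, none above the array median. It read 4.54, 6.39 and 4.81 on day 2, 6.32, 5.52 and 6.04 on day 4, and 5.37, 6.36 and 6.25 on day 8. All 9 arrays after injury lay above all 3 of day 0. The level rose by 2.15 on day 2, 2.86 on day 4 and 2.89 on day 8 (SE 0.40, adjusted p = 0.000340, 3.33e-05 and 6.51e-05, limma). It differed by 0.71 between days 2 and 4 (adjusted p = 0.287, limma) and by 0.03 between days 4 and 8 (adjusted p = 0.987), neither of them called. AA467197 and Prnd were the 2 genes of the 5 called higher on day 2, where 10.9% of all genes were, and on day 4, where 6.53% were, and Prnd was the 1 called higher on day 8, where 4.38% were.

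The order of Prnd means was endothelial day 8 (9.11 ± 0.14), day 4 (9.01 ± 0.22) and day 2 (8.56 ± 0.20), then satellite day 8 (5.99 ± 0.54) and day 4 (5.96 ± 0.41), endothelial day 0 (5.39 ± 0.71), satellite day 2 (5.25 ± 1.00) and satellite day 0 (3.10 ± 0.41). Arrays of neighbours overlapped everywhere except below endothelial day 2 and above satellite day 0. The satellite level was below the endothelial one by 2.29 on day 0 and by 3.32, 3.05 and 3.12 on days 2, 4 and 8 (SE 0.40).

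Endothelial transcripts rose in the satellite sort together with Prnd. Of 22 endothelial identity genes, 13, 7 and 10 rose in satellite cells on days 2, 4 and 8 and none fell, where 10.9%, 6.53% and 4.38% of all genes were called higher. Their median differences were 1.33, 0.99 and 1.23. The count on day 2 was 7 without satellite day 2 replicate 2. The count on day 4 was 4 without satellite day 0 replicate 3, 3 without satellite day 4 replicate 1 and 11 without satellite day 2 replicate 2, and that on day 8 was 6 without satellite day 8 replicate 3. The list mean was 5.82 to 6.07 on the resting satellite arrays, 6.41 to 8.37 on day 2, 6.61 to 7.30 on day 4 and 6.59 to 7.64 on day 8, against 9.08 to 9.75 on endothelial arrays.

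On all 3 days after injury the order of the 3 satellite arrays by Prnd was the order by this list, but at rest it was not. In endothelial cells the orders matched on 1 of 3 days after injury. Orders of 3 arrays describe coarsely. Satellite day 2 replicate 2 was the highest of its group for both, with Prnd at 6.39 and the list at 8.37. Without it Prnd rose by 1.58 on day 2 (adjusted p = 0.00196, limma). Prnd on that array was 2.17 below the endothelial mean of the same day, and on the other 2 satellite arrays of day 2 it was 4.02 and 3.76 below. The median over the endothelial list was 0.98, 2.91 and 2.57 below in the same order. The part of endothelial RNA in the satellite rise of Prnd was not tested.

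**Figure D2:**
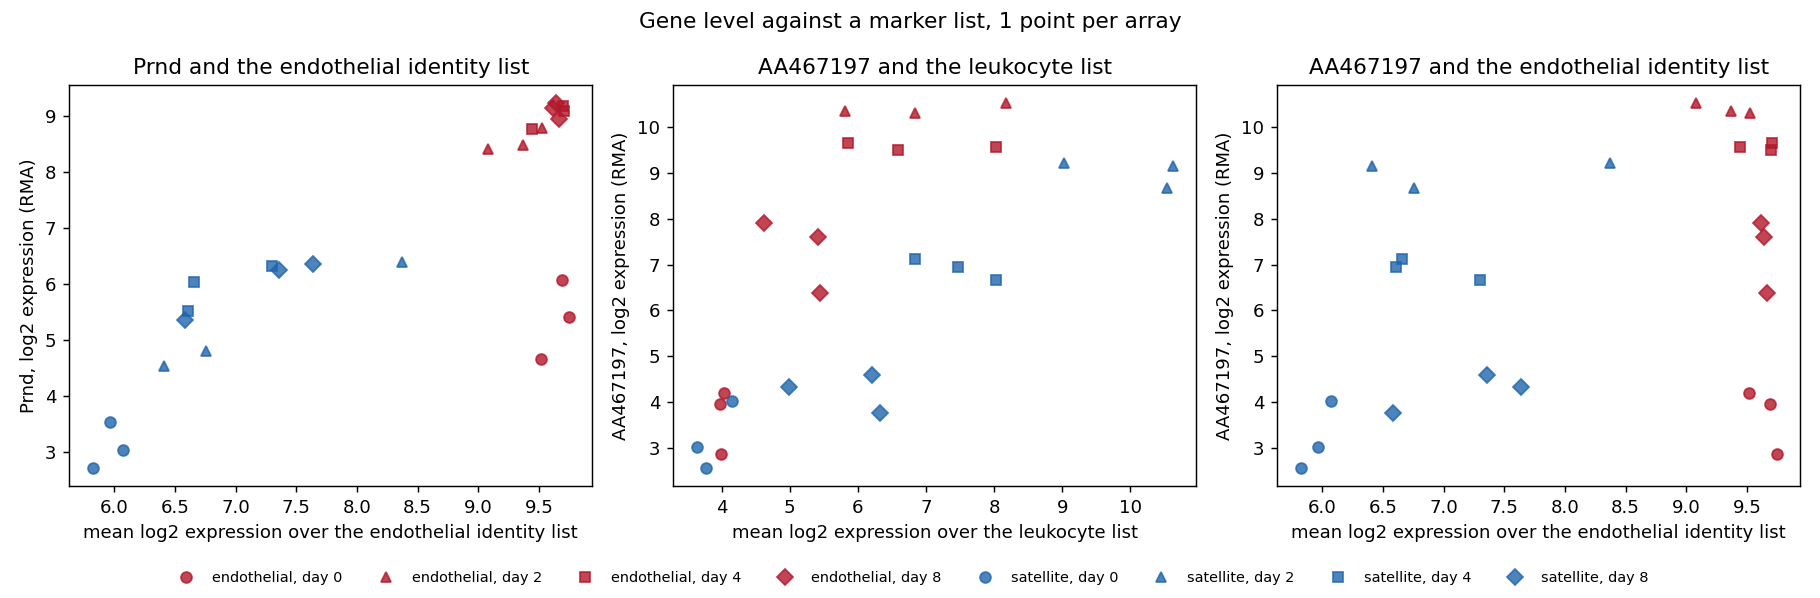
Log2 expression of Prnd or AA467197 (vertical axes) against the mean log2 expression over a marker list (horizontal axes), 1 point per array, red for endothelial and blue for satellite cells, with a shape for each day. On satellite arrays after injury Prnd is higher where the endothelial list is higher, while AA467197 on endothelial arrays of day 2 spans 0.21 over a leukocyte list span of 2.37.

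Prnp, which encodes the prion protein and lies beside Prnd on chromosome 2, was the 1 other family member tested. It read 6.52, 6.97 and 6.18 in resting endothelial cells and 7.79, 8.08 and 7.84 on day 4, without overlap. It rose by 1.35 on that day (adjusted p = 0.0398, limma). The differences of 1.15 on day 2 and 0.83 on day 8 were not called (adjusted p = 0.0694 and 0.347). The day 4 call was lost when endothelial day 0 replicate 1 or 3 or any 1 endothelial array of day 4 was left out. In satellite cells Prnp differed from rest by 0.11, -0.11 and -0.09, with no call.

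Genes of tip cells, the leading cells of vessel sprouts, rose in part. Of 19 tested, 6, 4 and 3 rose in endothelial cells on days 2, 4 and 8, beside 3.73%, 3.11% and 1.11% of all genes, and 2, 1 and 0 fell, beside 3.01%, 2.22% and 0.946%. Kdr and Ramp3 fell on day 2 and Dll4 on day 4 (named after their values were seen), by 1.15, 1.27 and 1.73. These calls were lost without single arrays, among them endothelial day 0 replicate 2. With 1 array left out, the count of 2 on day 2 ranged from 0 to 2. It changed with 8 of the 24 arrays, not all of them in the groups compared. The count of 1 on day 4 ranged from 0 to 2 and changed with 4. Without endothelial day 0 replicate 2 or 3 or any 1 endothelial array of day 8, the 3 that rose on day 8 became 1. Over all single arrays left out, that count ranged from 1 to 5. Pgf, a ligand of the VEGF family, rose by 4.96 and 3.22 on days 2 and 4 (adjusted p = 1.35e-07 and 2.15e-05, limma), and Apln, the ligand apelin, by 4.30, 2.18 and 1.74. Plaur, the urokinase receptor, rose by 2.55 on day 2, the basement membrane gene Nid2 by 2.01 and 2.02 on days 4 and 8, and Mcam, an adhesion molecule, by 1.52 on day 8.

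Cdh23 was measured above background mainly in endothelial cells of uninjured muscle. The resting endothelial arrays read 7.49, 8.00 and 7.39. They read 4.04, 3.68 and 4.40 on day 2, 3.58, 3.83 and 3.77 on day 4, and 4.68, 4.97 and 4.66 on day 8. Every array after injury lay below every resting array, those of day 4 below their array medians, and those of day 8 above all arrays of days 2 and 4. The level was lower by 3.59, 3.90 and 2.86 (SE 0.22 each), ranking 3, 3 and 8 among the falls of all genes tested, of which 3.01%, 2.22% and 0.946% were called lower on those days. The lower values sit near background, so the falls can be understated.

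All 12 satellite arrays read Cdh23 between 3.32 and 4.01, each below its array's median. The satellite differences from day 0 were -0.07, -0.06 and 0.20 (SE 0.22, adjusted p = 0.863, 0.900 and 0.650, limma), and none was called. Cdh23 passed the filter on low values through endothelial arrays alone, and at this level a fall in satellite cells could not be measured. Means ran from endothelial day 0 (7.63 ± 0.33) through endothelial day 8 (4.77 ± 0.17) and day 2 (4.04 ± 0.36) to endothelial day 4 (3.73 ± 0.13) and the satellite groups (3.46 to 3.72), and neighbours overlapped from endothelial day 2 downwards.

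Pcdh15, the tip link partner of cadherin-23, did not pass the filter on low values. Of 10 tip link and Usher syndrome genes on the array, 3 were tested. Myo7a, the motor of hair cell bundles, fell in endothelial cells by 1.05, 1.40 and 1.13 on days 2, 4 and 8 (adjusted p = 0.00424, 0.000293 and 0.00563, limma) and rose by 1.29 in satellite cells on day 2. The day 2 fall was lost without endothelial day 0 replicate 3 or endothelial day 2 replicate 1 or 2, and the day 8 fall without endothelial day 8 replicate 3. Of 18 other cadherin family genes tested, 1 fell in endothelial cells on day 2, Pcdh12, a vascular protocadherin, by 1.33. Over all genes, 3.01%, 2.22% and 0.946% were called lower in endothelial cells on days 2, 4 and 8, and 3.11% were called higher on day 4. On day 4 Pcdh7 rose by 2.14 and Clstn1 fell by 1.28, and none was called on day 8, where 3 were higher and 3 lower at an unadjusted p under 0.05 (limma). The Pcdh12 call was lost without endothelial day 0 replicate 1 or 2 or endothelial day 2 replicate 1 or 3, the Clstn1 call without endothelial day 0 replicate 1 or 2 or endothelial day 4 replicate 1, and the Pcdh7 call without endothelial day 4 replicate 3. In satellite cells 8, 5 and 3 cadherin genes fell on days 2, 4 and 8, where 9.67%, 5.47% and 2% of all genes did. On the same days 1, 4 and 1 rose, where 10.9%, 6.53% and 4.38% of all genes did. Cdh15 (M-cadherin, an adhesion molecule of satellite cells) fell by 2.74 on day 2 and rose by 1.08 on day 4 (adjusted p = 1.04e-07 and 0.00535, limma). The 8 that fell were 5 without satellite day 0 replicate 2, the 3 that fell were 1 without satellite day 0 replicate 2 or 3, and the 4 that rose were 2 without satellite day 0 replicate 2 or satellite day 4 replicate 2.

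Aldh1l1 was also high in resting endothelial cells and lower after injury. The resting endothelial arrays read 8.06, 7.43 and 6.85. They read 4.30, 4.10 and 4.64 on day 2, 4.77, 4.67 and 4.66 on day 4, and 5.32, 4.62 and 5.21 on day 8. Every array after injury lay below every resting array. The level was lower by 3.10, 2.75 and 2.40 (SE 0.30 each), ranking 6, 23 and 27 among all falls.

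Aldh1l1 in satellite cells lay between 3.44 and 4.43 on the 12 arrays, 3 of them above the array median. The differences were 0.03, -0.20 and -0.12 (SE 0.30, adjusted p = 0.964, 0.724 and 0.863, limma), with no call. The satellite group means minus the array medians lay between -0.50 and -0.23, and at this level a fall in satellite cells could hardly be measured. The order of means was endothelial day 0 (7.45 ± 0.61), day 8 (5.05 ± 0.38), day 4 (4.70 ± 0.06) and day 2 (4.35 ± 0.27), followed by the satellite groups (3.81 to 4.04). Resting endothelial arrays overlapped with no other group, and the arrays of endothelial days 4 and 2 did not overlap with each other.

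Of 23 other genes of folate one-carbon metabolism tested, 6 rose in endothelial cells on day 2, where 3.73% of all genes did, and none was called on days 4 and 8. None fell on any of these days, and at an unadjusted p under 0.05 (limma) 1 was lower on each day and 8, 4 and 0 were higher. Mthfd2, the mitochondrial dehydrogenase of the pathway, rose by 1.87 on day 2 (adjusted p = 0.000938, limma), and the purine synthesis enzymes Atic and Gart by 1.55 and 1.47 (adjusted p = 0.000249 and 0.00816). In satellite cells 3, 4 and 1 rose on days 2, 4 and 8, where 10.9%, 6.53% and 4.38% of all genes did, and none fell. These were led by Folr2, a folate receptor known from macrophages, which rose by 2.73 on day 2 in the same arrays as the leukocyte list, and by Mthfd2 and Tyms. Aldh1l2, the mitochondrial counterpart of Aldh1l1, did not pass the filter on low values.

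Markers of mural cells (pericytes and smooth muscle), which wrap vessels, were also lower in the endothelial sort after injury. Of 10 tested, 4, 5 and 4 fell on days 2, 4 and 8, where 3.01%, 2.22% and 0.946% of all genes did. The count was 2 on day 2 without endothelial day 2 replicate 2, and 3 on day 4 without endothelial day 0 replicate 1 or endothelial day 4 replicate 1. The mean over this list was 7.08 to 7.98 on the endothelial arrays of day 0, 5.56 to 6.81 on day 2, 5.27 to 6.62 on day 4 and 6.01 to 6.22 on day 8. Rgs5, a regulator of G protein signalling that marks pericytes (named after its values were seen), fell by 2.00, 3.24 and 2.26 (adjusted p = 0.0056, 6.4e-05 and 0.00527, limma). The resting endothelial arrays had the same order by Aldh1l1 as by this list, but not by Cdh23. On endothelial days 2, 4 and 8 the order by this list matched neither that by Aldh1l1 nor that by Cdh23. An order of 3 arrays is a coarse description. On resting satellite arrays the list mean was 9.60 to 10.35, while Cdh23 lay below every array median there and Aldh1l1 above it on 1 array of 3.

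Markers of capillary endothelium also fell in the endothelial sort. Of 9 tested, 5, 3 and 2 fell on days 2, 4 and 8, where 3.01%, 2.22% and 0.946% of all genes did. The 5 were 3 when any 1 of endothelial day 0 replicates 1 and 2 and the 3 endothelial arrays of day 2 was left out. The 2 were 1 without endothelial day 0 replicate 1 and 0 without endothelial day 0 replicate 2 or 3 or endothelial day 8 replicate 2 or 3. The list mean was 10.56 to 10.80 on the endothelial arrays of day 0, 8.82 to 9.63 on day 2, 9.26 to 9.67 on day 4 and 9.94 to 10.16 on day 8. Timp4, an inhibitor of metalloproteinases, fell by 4.59, 4.45 and 2.49 (adjusted p = 1.65e-05, 2.29e-05 and 0.0151, limma), and Car4, a membrane-bound carbonic anhydrase, fell by 2.31, 3.09 and 2.62 (adjusted p = 0.0305, 0.0052 and 0.0364), both named after their values were seen. Muscle fibre markers were lower in these arrays as well, as given above. The part of mural, capillary or muscle fibre RNA in the falls of Cdh23 and Aldh1l1 was not tested.

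**Figure D3:**
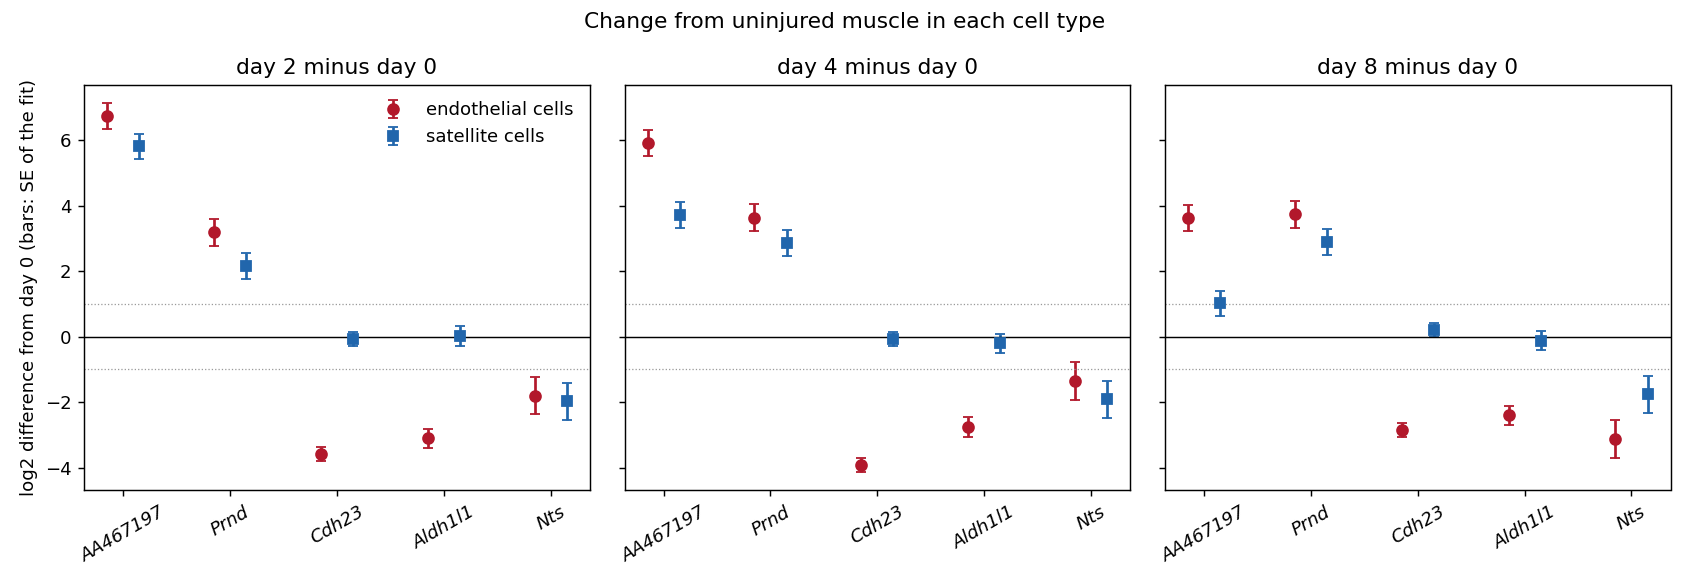
Log2 difference from day 0 (vertical axis) for each gene on days 2, 4 and 8 (panels), red circles for endothelial and blue squares for satellite cells, with bars of 1 SE of the fit and dotted lines at the size needed for a call. The points of AA467197 and Prnd lie above 0 in both cell types, those of Nts lie below 0 in both, and those of Cdh23 and Aldh1l1 lie below 0 in endothelial cells and near 0 in satellite cells.

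Nts was high but spread widely in resting endothelial cells. The resting endothelial arrays read 7.45, 8.27 and 5.56. They read 5.77, 4.80 and 5.31 on day 2, 5.24, 6.85 and 5.14 on day 4, and 4.34, 4.13 and 3.44 on day 8. The arrays of days 2 and 4 overlapped day 0, and only those of day 8 lay below all resting arrays. The level was lower by 1.80, 1.35 and 3.12 (SE 0.57 each), which is 3.48-fold on day 2 and 2.55-fold on day 4, ranking 117, 252 and 6 among all falls. The difference on day 2 was -1.21 without endothelial day 0 replicate 2 and -2.57 without endothelial day 0 replicate 3, and that on day 4 was -0.76 and -2.12 in the same order.

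Satellite cells also carried Nts at rest, at 5.30, 6.00 and 4.51. Their arrays read 3.67, 3.49 and 2.73 on day 2, 4.25, 2.80 and 3.03 on day 4, and 3.52, 3.35 and 3.66 on day 8. All 9 arrays after injury lay below all 3 resting arrays and below their array medians. The level fell by 1.98 on day 2 and by 1.91 on day 4 (SE 0.57, adjusted p = 0.0118 and 0.0235, limma). The difference on day 8, -1.76, was not called (adjusted p = 0.0583). Nts was the 1 gene of the 5 called lower in satellite cells on days 2 and 4, where 9.67% and 5.47% of all genes were, and none of the 5 was called lower on day 8, where 2% were. Leaving out Cdh23, which lay below the median on every satellite array, the 12 satellite tests of the other 4 genes against day 0 gave 5 calls higher, 2 lower and 5 not called. Those not called include the tests of Aldh1l1, whose satellite means also lay below the array medians in every group. The calls higher are those of AA467197 and Prnd, and the calls lower are those of Nts. Tests of the same gene share their day 0 arrays, so these calls are not independent. Over all genes, 10.9%, 6.53% and 4.38% were called higher in satellite cells on days 2, 4 and 8.

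The Nts calls in satellite cells rested on single arrays. The day 2 fall was -1.61 (adjusted p = 0.0684, limma) without satellite day 0 replicate 2 and -1.69 (adjusted p = 0.0622) without satellite day 2 replicate 3. The day 4 fall was lost without satellite day 0 replicate 1 (adjusted p = 0.0608) or 2 (0.116) and without satellite day 4 replicate 2 (0.102) or 3 (0.0834), with differences from -1.89 to -1.54. The day 8 difference passed without satellite day 0 replicate 3 (-2.14, adjusted p = 0.0421). It also passed, at -1.76, without endothelial day 0 replicate 2 or 3, endothelial day 4 replicate 2 or satellite day 4 replicate 1, arrays that enter this comparison through the shared spread alone (adjusted p = 0.0390, 0.0212, 0.0419 and 0.0483).

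Mural and satellite cell markers fell in the satellite sort together with Nts. All 10 mural markers fell on day 2, 8 on day 4 and 3 on day 8, where 9.67%, 5.47% and 2% of all genes did. The count on day 8 was 1 without satellite day 0 replicate 2 or 3 or satellite day 8 replicate 3. The mural list mean was 9.60 to 10.35 on the resting satellite arrays, 6.52 to 8.19 on day 2, 7.00 to 7.31 on day 4 and 8.57 to 9.34 on day 8. The order of the 3 satellite arrays by Nts matched the order by this list on 0 of 3 days after injury, and that of the endothelial arrays on 1 of 3. With 3 arrays such an order is a coarse description. Of 8 satellite cell markers, 8 fell on day 2, 2 on day 4 and 2 on day 8. On days 4 and 8, 1 rose, where 6.53% and 4.38% of all genes did. With 1 array left out, the 2 of day 8 ranged from 0 to 3 and each rise from 0 to 1. The list mean was 8.37 to 8.51 at rest, 4.83 to 5.29 on day 2, 6.93 to 7.85 on day 4 and 7.73 to 8.44 on day 8. On day 8 Nts read 3.35 to 3.66. The part of mural or satellite cell RNA in the Nts falls was not tested.

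The satellite level of Nts was below the endothelial one by 1.82, 2.00, 2.38 and 0.46 on days 0, 2, 4 and 8 (SE 0.57). Means ran from endothelial day 0 (7.09 ± 1.39) through endothelial day 4 (5.74 ± 0.96), endothelial day 2 (5.29 ± 0.48) and satellite day 0 (5.27 ± 0.75), whose arrays overlap with their neighbours, to endothelial day 8 (3.97 ± 0.47) and the satellite groups after injury (3.29 to 3.51). Of 6 lymphatic markers tested, none was called in endothelial cells on any day in limma's test. At an unadjusted p under 0.05, 0, 1 and 1 were higher and 0, 1 and 0 lower on days 2, 4 and 8. The order of arrays by Nts matched that by the lymphatic list on 1 of 3 days after injury in endothelial cells and on 2 of 3 in satellite cells.

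Of the neurotensin receptors, Ntsr1 did not pass the filter on low values. Ntsr2 lay above the median on all 24 arrays, with group means of 4.86 to 5.13, and its differences from day 0 lay between -0.17 and 0.03 with no call. Sort1, which encodes sortilin, a sorting receptor that binds neurotensin, read 7.17, 8.60 and 8.32 in resting satellite cells and 5.83, 5.62 and 5.72 on day 4. It fell in satellite cells by 1.47 on day 2 and fell by 2.31 on day 4 (adjusted p = 0.00840 and 0.000351, limma). Its endothelial differences of -1.02, -0.79 and -1.25 were not called. Among 11 tested genes that process, bind or degrade neurotensin, 2 rose and 1 fell in endothelial cells on day 2, where 3.73% and 3.01% of all genes did. On day 4, 1 rose, where 3.11% of all genes did. None was called on day 8, where 1 was lower at an unadjusted p under 0.05 (limma). In satellite cells 2 rose and 3 fell on day 2, where 10.9% and 9.67% of all genes did. On day 4, 2 rose and 3 fell, where 6.53% and 5.47% of all genes did. None was called on day 8, where 1 was higher and 1 lower at an unadjusted p under 0.05 (limma).

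Cpe, the carboxypeptidase that trims peptide hormones, fell by 1.55 in endothelial cells on day 2 (adjusted p = 0.00779, limma) and by 2.66 and 3.06 in satellite cells on days 2 and 4. Pcsk1, a convertase of hormone precursors, fell by 1.87 and 2.39 in satellite cells on the same days. Sorl1, a sorting receptor related to sortilin, rose by 2.49 in satellite cells on day 2 (adjusted p = 0.000132, limma). The 2 that rose in satellite cells on day 2 were 1 without satellite day 0 replicate 2 or satellite day 2 replicate 2 or 3, and the 2 of day 4 were 1 without any 1 of 12 of the 24 arrays. Thop1, a peptidase that degrades neurotensin, rose by 1.47 and 1.13 in endothelial cells on days 2 and 4, and Nln, neurolysin, rose by 1.19 on day 2. Both rises of day 2 were lost without endothelial day 2 replicate 2, 1 of them without endothelial day 0 replicate 1 or endothelial day 2 replicate 1 or 3, and the Thop1 rise of day 4 without any 1 of 17 of the 24 arrays.

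**Figure D4:**
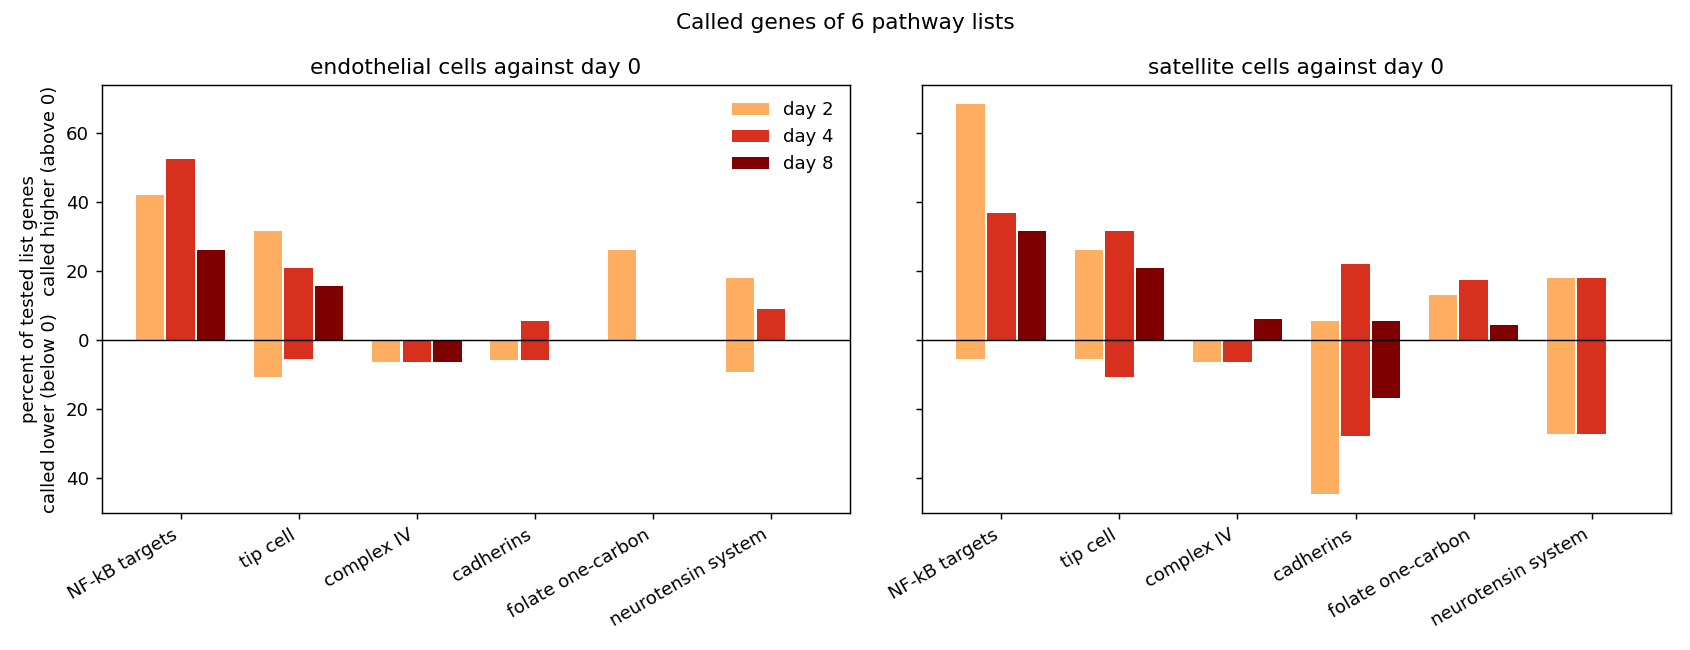
Percent of tested genes called higher (bars above 0) or lower (bars below 0) against day 0 (vertical axis) for 6 of the 8 pathway lists (horizontal axis), in endothelial cells (left) and satellite cells (right), with a colour for each day. NF-kB targets have the tallest bars above 0 in both cell types, and folate genes are called in endothelial cells on day 2 alone.

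The genes with the most similar course over the 8 groups were found by the root mean square distance between profiles of group means, each centred on its own mean. The nearest to AA467197 were Apln, Pgf and Lcp2 at 1.28, 1.29 and 1.39, where the median over all genes was 2.64. The nearest to Prnd were Plvap, Meox1 and Aplnr at 0.83, 0.84 and 0.84 (median 2.03). Cdh23 had Aldh1l1 as its nearest gene at 0.31, ahead of Gm5069 (0.37) and Alpl (0.38), with a median of 1.36. Cdh23 and Aldh1l1 were both chosen for an endothelial fall and lie near the array medians in most other groups. Their small distance therefore follows in part from that choice. Aldh1l1 was nearest to Gm5069 (0.12), Bambi-ps1 (0.26) and Alpl (0.31), with a median of 1.16. Nts had no neighbour under 0.60, the nearest being Gm15051, Cped1 and Kcna5 at 0.60, 0.60 and 0.61 (median 1.32). Of the 3 nearest genes, 3, 3, 2, 2 and 0 were also among the 3 nearest when the distance was taken over the 24 arrays, for AA467197, Prnd, Cdh23, Aldh1l1 and Nts. Alpl, the alkaline phosphatase of bone and capillaries, was lower in endothelial cells by 2.84, 3.08 and 2.39. It was picked for its nearness to Cdh23 and Aldh1l1 on these same arrays, so this fall follows from the choice and no test is given.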

How the data were processed

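The arrays are one-colour Affymetrix MoGene 2.0 ST arrays of RNA amplified from picogram amounts, per the labels' protocols. The deposited log2 values were made by the authors with RMA, per the submitters' processing notes, and their normalization was kept. The genome build and the RMA version are not given in the sources used here. Gene symbols came from the platform's annotation table. It names 23281 of 24479 probe sets, and the brighter probe set was used where a symbol had more than 1. A gene was tested if its value lay above the array median on at least 3 arrays. A single fit in limma 3.58.1 (R 4.3.3) took all 24 arrays and the 8 groups as means, which leaves 16 residual degrees of freedom for eBayes. Its two-sided tests were adjusted over the 14064 genes tested by Benjamini-Hochberg. Precision is limited by the 3 arrays a group. Differences were called at an adjusted p under 0.05 and an absolute log2 difference of at least 1. Folds are given only where the lower mean lies at least 1 above the array median.

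The 5 genes and the gene lists were chosen with earlier results of these data known. The list genes named are up to 3 called genes of largest difference per list and comparison, beside fixed partners and markers. The code was tested on simulated data. Of 12 same-numbered pairs of endothelial and satellite arrays, 4 had a correlation over 0.1 (range -0.06 to 0.20), so no pairing was used. Alternatives were the filter, array centring and weights, the variance model, replicate blocks, satellite arrays alone, no minimum difference and each array left out.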

Additional observations from a re-analysis of the deposited data

Results flagged for a closer look

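Ndufa4, the complex IV subunit related to the AA467197 protein, responded differently in the sorted populations by a test of the difference itself. The satellite response exceeded the endothelial one by 1.03 on day 4 (log2, SE 0.23, adjusted p = 0.0105, limma) and by 1.21 on day 8 (adjusted p = 0.00529, limma). The resting levels were 9.85 ± 0.06 in endothelial and 9.42 ± 0.25 in satellite cells (SD, n = 3), and those of day 8 were 9.60 ± 0.05 and 10.38 ± 0.14. Muscle fibre markers rose in the same satellite arrays, 4 of 9 on day 4 and 7 of 9 on day 8, and their part in the difference was not tested. Groups of 3 arrays are too small for a test of single outlying arrays, so none was made.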

How the results depend on the processing

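The endothelial differences of the 5 genes moved by less than 1 SD between replicates under every alternative run. With 3 arrays a group, leaving out 1 cannot move a difference that far, so this measure does not show stability. Leaving out 1 array, the endothelial Nts difference ranged from -2.12 to -0.76 on day 4 and from -3.89 to -2.54 on day 8. In satellite cells the calls of AA467197 on days 2 and 4 and of Prnd on all 3 days passed under all 32 alternatives. With replicate number as a fixed block the day 8 difference of Nts was -1.76 and passed (adjusted p = 0.0289, limma), as it did with satellite arrays alone (-1.76, adjusted p = 0.0325). The block changed no other call of the 5 genes. With array weights the day 8 difference of AA467197 was 1.37 and passed (adjusted p = 0.0198). Leaving out 1 array, that difference ranged from 0.70 to 1.43, and those of Nts from -2.36 to -1.61 on day 2, -2.35 to -1.54 on day 4 and -2.14 to -1.40 on day 8, each with a lost or gained call. Uncalled differences near 0 changed sign. These were Cdh23 on day 2 with arrays centred on their medians (0.0088) and Aldh1l1 on day 2 with array weights (-0.065). Leaving out 1 array, Cdh23 ranged from -0.17 to 0.0087 on day 2 and -0.16 to 0.012 on day 4, and Aldh1l1 from -0.10 to 0.23, -0.47 to 0.0039 and -0.24 to 0.089 on days 2, 4 and 8. The cause of these shifts was not tested. Leaving out 1 array moved the count of all genes called lower in endothelial cells from 423 to between 248 and 461 on day 2, and from 133 to between 54 and 158 on day 8. The lowest were without endothelial day 2 replicate 2 and endothelial day 8 replicate 3. Of 240 list counts, 5479 of 5760 values with 1 array left out and 936 of 960 under other alternatives lay within 1.5 times the count. Cdh23 did not pass the filter among satellite arrays alone. Falls that end near the array medians, such as those of Cdh23 and Aldh1l1, can be understated, and 3 arrays a group limit the precision.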

Other observations

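Genes beside the 5 on their chromosomes were also read, with values seen before they were named. Each is the nearest gene that was tested, or 1 that overlaps, so an untested gene may lie between. Slc30a4, a zinc transporter next to AA467197, rose in endothelial cells by 1.89 on day 2 and 1.43 on day 4 (adjusted p = 0.0019 and 0.0166, limma), and was not called in satellite cells, where AA467197 rose. Spata5l1, on the other side, was not called in endothelial cells. Rassf9, next to Nts, fell in endothelial cells by 2.18 on day 2 (adjusted p = 0.00586, limma) and was not called on days 4 and 8. Vsir, which encodes an immune checkpoint receptor and overlaps Cdh23, was not called in endothelial cells, where Cdh23 is lower after injury, and rose in satellite cells by 2.93 and 1.81 on days 2 and 4. Klf15, next to Aldh1l1, fell in satellite cells by 1.05 and 1.41 on days 2 and 4 and was not called in endothelial cells. Slc41a3, on its other side, fell in satellite cells by 1.08 on day 4. In satellite cells on day 2, Rassf2, next to Prnd, rose by 2.25 (adjusted p = 0.000703, limma). Psap and Slc29a3, on either side of Cdh23, rose there by 1.52 and 1.58. None of these 3 was called on days 4 and 8 or in endothelial cells.

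Over the 4 endothelial group means alone, the genes nearest to AA467197 were Cxcl2, Tyrobp and Ctss at distances of 0.39, 0.62 and 0.70, and Tyrobp and Ctss are among the leukocyte markers. Those nearest to Prnd were Mest, Cdk1 and Ube2c at 0.20, 0.22 and 0.25, of which Cdk1 and Ube2c act in mitosis. Those nearest to Cdh23 were Bmp6, Alpl and Vtn, and those nearest to Aldh1l1 were Gucy1a1, Gm5069 and Fgf9. None of the genes nearest to AA467197, Prnd or Nts over all 8 groups was among those nearest over these 4, and 1 was for Cdh23 and 1 for Aldh1l1.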
